A study of Mus musculus with 9 samples.

Results

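Acute phase proteins are plasma proteins, made mainly by the liver, whose amounts in blood change during inflammation. The genes of 10 of them were followed in sorted stromal cells of the developing mouse liver: Hp, Hpx, Cp, Lcn2, Apcs, Crp, Saa4, Orm1, Itih3 and Itih4. They were taken from a list of names, chosen with earlier results of these data known, and are 10 of the 19938 genes with a value. Shares of all genes called are therefore given beside their counts as a description. Each is represented by the probe set that carries its symbol alone and, where a gene has several, has the highest mean over the 9 arrays. The cells came from livers of C57BL/6 mice with 1 Cxcl12 allele carrying the red fluorescent reporter DsRed (Cxcl12DsRed/+). They were sorted as positive for DsRed and negative for CD45 and Ter119, surface markers of blood and red cells. Groups were livers at the embryonic day E15.5 and at postnatal days 5 (P5) and 10 (P10), with 3 Affymetrix arrays each. The series describes the replicates as independent, but the labels do not say whether animals were pooled. The p-values therefore measure the spread between these arrays. All groups carry the reporter allele, so nothing here compares it with a liver without it, and no inflamed or adult liver was analysed here.

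In the adult, interleukin 6 and related cytokines act through the shared receptor subunit gp130 and the transcription factor STAT3 on hepatocytes, and interleukin 1 acts through NF-kB. Both raise the transcription of acute phase genes, together with C/EBP factors, while factors such as HNF4 hold the basal, liver-specific level. The proteins scavenge haem and haemoglobin, bind metals and siderophores, recognise damaged cells and microbes, carry lipids and drugs, and stabilise the matrix. The mouse differs from man in its acute phase: serum amyloid P component, the product of Apcs, responds strongly, and C-reactive protein, the product of Crp, responds weakly.

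All 10 genes had their lowest mean at E15.5, and the share of all genes that did so was not computed. For Itih3 this depends on the processing, as its difference between P10 and E15.5 ran from -0.23 to 0.25 over the alternatives. At P5, 9 rose over E15.5, from 0.74 for Itih3 to 5.03 for Hp on the log2 scale, and Orm1 did not pass the test. A limma adjusted p under 0.05 in either direction was reached by 35.6% of all genes in this comparison, and 17.9% rose and 17.7% fell. At P10, 8 of the 10 were higher than at E15.5, against 38.7% of all genes called in that comparison, with 20.1% that rose and 18.6% that fell. Itih3 and Orm1 did not pass. In bulk samples such as these, more cells of a type and more RNA per cell cannot be told apart, and 13 of 15 hepatocyte markers also rose at P5. Between P5 and P10, Saa4 rose and Apcs, Crp and Itih3 fell, against 5.65% of all genes called, 2.76% as higher and 2.89% as lower. The mean was highest at P5 for 8 genes, all but Saa4 and Orm1, and 28.1% of all genes have their highest mean at P5.

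The arrays gave no detection calls, so the signal of 1027 olfactory receptor genes, which are read almost only in nasal tissue, served as a description of background. Its percentile 95 was 5.84 to 6.00 on the log2 scale over the 9 arrays, and the median of all genes was 6.69 to 6.82. Of the 10 acute phase genes, 8 were above that percentile on every array. Lcn2 was above it on 1 of 3 E15.5 arrays and on all later ones, and Orm1 on 8 of 9 arrays. Ptprc, which encodes CD45, was at 4.97 to 5.20 and never above it. Alb, which encodes albumin, was at 13.03 to 13.22 on every array, and Cxcl12 was at 10.68 to 11.31 at E15.5 and 9.95 to 10.31 later. P10 array 1 stands apart from the other P10 arrays at some of the genes, and results that rest on it are given with and without it.

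**Figure D1:**
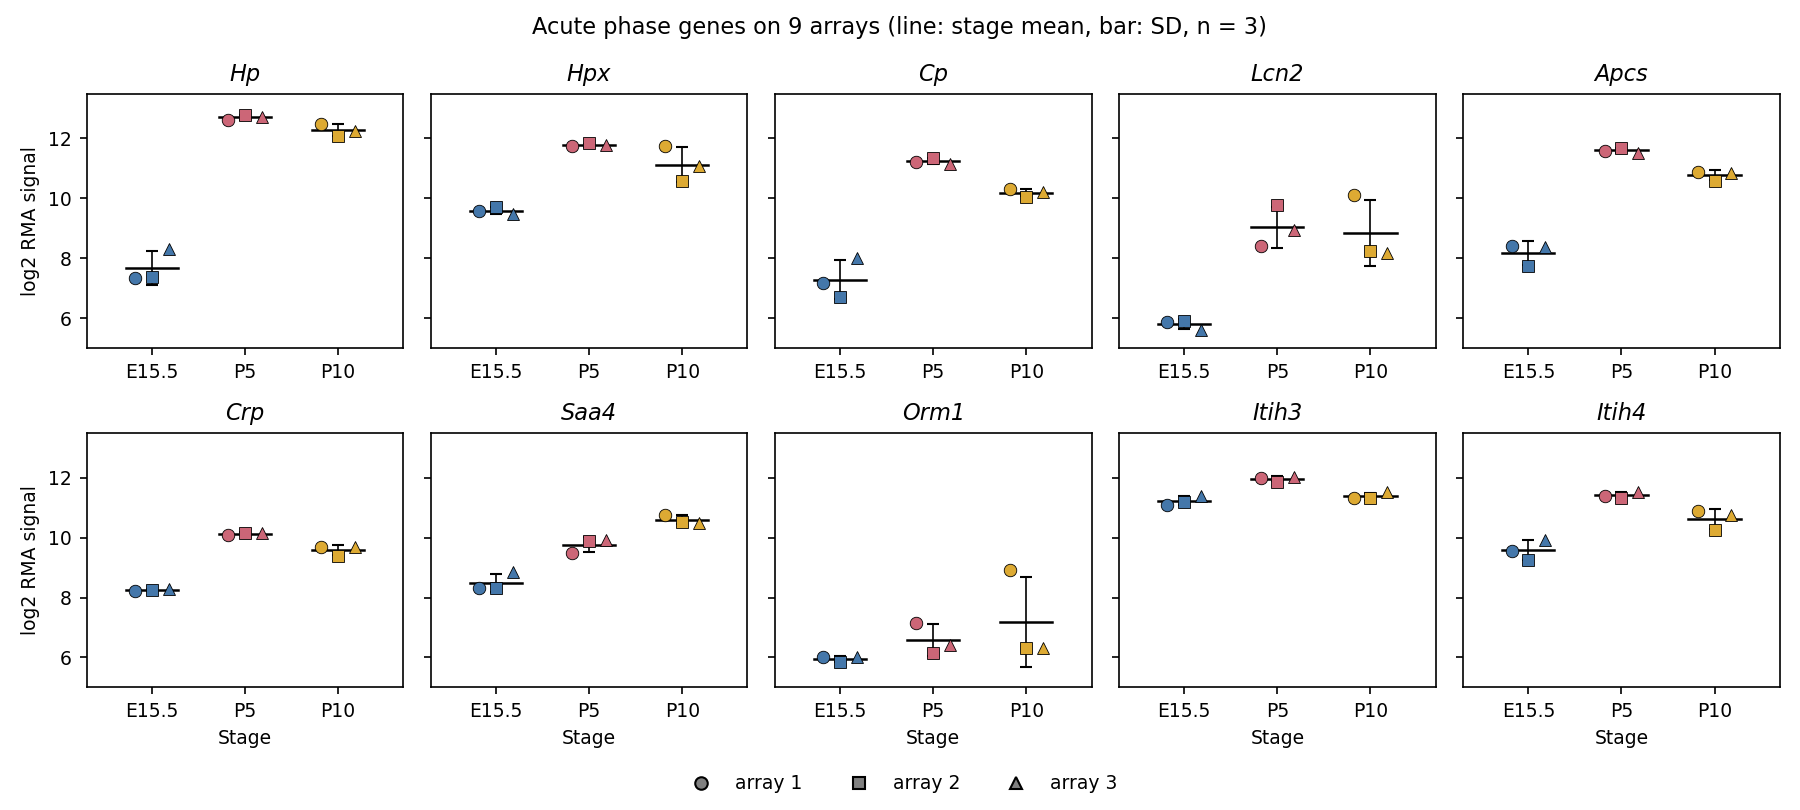
Log2 RMA signal of each of the 10 acute phase genes on each array, grouped by stage, with points for arrays, lines for stage means and bars for SD (n = 3). The 3 P5 arrays lie wholly above the 3 E15.5 arrays for each gene, and P10 array 1 is far above the other P10 arrays for Lcn2 and Orm1.

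Hp and Hpx encode the scavengers of free haemoglobin and haem. Haptoglobin, from Hp, binds haemoglobin released by broken red cells and hands it to the macrophage receptor CD163. The log2 signal of Hp was 7.32, 7.38 and 8.31 on E15.5 arrays 1 to 3, 12.62, 12.78 and 12.71 on the P5 arrays, and 12.50, 12.09 and 12.23 on the P10 arrays. The stages did not overlap, E15.5 array 3 stood 0.96 above the mean of the other E15.5 arrays, and the P10 arrays were all slightly below the P5 arrays. Hp was 32.7-fold higher at P5 than at E15.5 (5.03 ± 0.25 SE on the log2 scale, adjusted p 1.4e-06) and 24.3-fold higher at P10 (4.60 ± 0.25, adjusted p 1.6e-06). The difference between P10 and P5, -0.43 ± 0.25, did not pass (adjusted p 0.438).

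Hemopexin, from Hpx, binds free haem and is taken up through LRP1. Its signal was 9.57, 9.72 and 9.47 at E15.5, 11.74, 11.83 and 11.76 at P5, and 11.75, 10.56 and 11.06 at P10. All P5 and P10 arrays lay above the E15.5 arrays. P10 array 1 was at the P5 level and P10 arrays 2 and 3 were below it, so that P5 and P10 overlap. Hpx was 4.57-fold higher at P5 (2.19 ± 0.25 on the log2 scale, adjusted p 0.000195) and 2.91-fold higher at P10 (1.54 ± 0.25, adjusted p 0.0012) than at E15.5. From P5 to P10 the difference was -0.65 ± 0.25 (adjusted p 0.210). Without P10 array 1 it was -0.96 and passed (adjusted p 0.0169). The shift of Hp was larger than that of Hpx: the within-array difference Hp minus Hpx moved by 2.84 from E15.5 to P5 and by 3.06 from E15.5 to P10. An exact permutation test over all 1680 assignments of 9 arrays to 3 stages gave p 0.0143, or 0.0190 adjusted over the 4 gene pairs tested.

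Cp and Lcn2 encode proteins that handle iron. Ceruloplasmin, from Cp, is a copper-containing ferroxidase that lets iron leave cells and load onto transferrin. The signal of Cp was 7.16, 6.69 and 7.997 at E15.5, 11.21, 11.35 and 11.16 at P5, and 10.30, 10.05 and 10.22 at P10. No stages overlapped, P10 lay wholly between the others, and E15.5 array 3 was 1.07 above the mean of the other E15.5 arrays. On the log2 scale Cp was 3.96 ± 0.28 higher at P5 than at E15.5 (adjusted p 1.1e-05) and 2.91 ± 0.28 higher at P10 (adjusted p 4.9e-05, or 7.51-fold). The difference of -1.05 ± 0.28 from P5 to P10 did not pass (adjusted p 0.0722). It passed in the fit of both postnatal stages alone and without E15.5 array 2 or E15.5 array 3.

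Lipocalin 2, from Lcn2, binds bacterial siderophores and so keeps iron from microbes. It is also stored in granulocytes. Its signal was 5.86, 5.91 and 5.61 at E15.5, 8.40, 9.76 and 8.94 at P5, and 10.10, 8.25 and 8.18 at P10. The E15.5 arrays were near the olfactory receptor background. Of the postnatal arrays, P5 array 2 and P10 array 1 were high, by 1.09 and 1.89 over the mean of the other arrays of their stage, and both stages overlap. Lcn2 was 9.46-fold higher at P5 (3.24 ± 0.53 on the log2 scale, adjusted p 0.0014) and 8.28-fold higher at P10 (3.05 ± 0.53, adjusted p 0.0017) than at E15.5. Without P10 array 1 the P10 difference was 2.42 (adjusted p 0.0012). P10 and P5 differed by -0.19 ± 0.53 (adjusted p 0.913). The within-array difference Cp minus Lcn2 did not pass over the stages (exact permutation test, p 0.443), and its SD within a stage was 0.61 to 1.00.

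The region upstream of Lcn2 is shown because, after Orm1, this gene had the largest SD within a stage among the 10, and because it holds matches to the C/EBP type and short NF-kB type motifs. It holds no match to the STAT3 type motif TTCNNNGAA, which says only that these letters are not in the window. The sequence is the 250 bases before the transcript start in RefSeq's GRCm38.p6 annotation, chr2:32387740-32387989, minus strand, read 5′ to 3′. Capitals mark 1 match to the C/EBP type motif TTGCNNAA, 216 to 209 bases before the start, and 2 matches to the short NF-kB type motif GGGNNNTCC, 102 to 94 and 45 to 37 bases before it.
Lcn2 upstream: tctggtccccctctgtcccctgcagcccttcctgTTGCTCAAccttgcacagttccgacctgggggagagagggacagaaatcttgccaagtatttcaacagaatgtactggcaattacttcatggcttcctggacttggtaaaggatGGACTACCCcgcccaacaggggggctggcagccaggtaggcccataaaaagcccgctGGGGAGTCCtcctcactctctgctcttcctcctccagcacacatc
Motifs were searched on both strands, and GGGNNNTCC on the other strand reads GGANNNCCC. A C/EBP type match is held by 9.56% and a short NF-kB type match by 15.2% of all 32851 RefSeq windows of this length. These matches are descriptions of letters and do not show that a factor binds.

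Apcs and Crp encode the short pentraxins, rings of identical subunits that bind phosphocholine, chromatin and other exposed ligands. They lie next to each other on chromosome 1 among protein-coding genes. The signal of Apcs was 8.42, 7.73 and 8.37 at E15.5, 11.59, 11.68 and 11.52 at P5, and 10.87, 10.58 and 10.86 at P10. The signal of Crp was 8.21, 8.25 and 8.27 at E15.5, 10.07, 10.15 and 10.17 at P5, and 9.68, 9.39 and 9.68 at P10. For both genes the stages did not overlap, in the order E15.5, P10, P5. Apcs was 10.7-fold higher at P5 (3.42 ± 0.18 on the log2 scale, adjusted p 2.1e-06) and 6.05-fold higher at P10 (2.60 ± 0.18, adjusted p 7.1e-06) than at E15.5. Crp was 3.69-fold higher at P5 (1.88 ± 0.083, adjusted p 8.4e-07) and 2.53-fold higher at P10 (1.34 ± 0.083, adjusted p 3.9e-06).

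Both pentraxin genes fell from P5 to P10. Apcs fell by 0.83 ± 0.18 (adjusted p 0.0353) and Crp by 0.55 ± 0.083 (adjusted p 0.0090). The call for Crp held in all 18 alternatives. That for Apcs was lost in 7 of 18, which are the fit with Eif2s3y as a covariate and those without any single P5 or P10 array, where the adjusted p reached 0.123. The neighbours changed unequally: Apcs minus Crp within an array was -0.071 ± 0.40 (SD, n = 3) on the E15.5 arrays, 1.47 ± 0.10 at P5 and 1.19 ± 0.0078 at P10. The exact permutation test gave p 0.0036, the smallest it can give, and 0.0143 adjusted over the 4 pairs. Levels of different probe sets are not compared here, and only the shifts of this difference, 1.54 at P5 and 1.26 at P10, are read.

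The upstream regions of both neighbours are shown because the genes share a locus and an order of stages but not the size of their change. They are the 250 bases before the RefSeq transcript start on GRCm38.p6, chr1:172895055-172895304 on the minus strand for Apcs and chr1:172697806-172698055 on the plus strand for Crp. Capitals mark a STAT3 type match TTCNNNGAA in Apcs, 244 to 236 bases before the start, and a TATA type match TATAAA in Crp, 31 to 26 bases before the start.
Apcs upstream: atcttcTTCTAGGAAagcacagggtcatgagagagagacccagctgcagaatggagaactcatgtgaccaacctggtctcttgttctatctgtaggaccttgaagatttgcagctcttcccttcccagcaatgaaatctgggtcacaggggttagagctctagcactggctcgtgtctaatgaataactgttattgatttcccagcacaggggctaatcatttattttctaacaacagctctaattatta
Crp upstream: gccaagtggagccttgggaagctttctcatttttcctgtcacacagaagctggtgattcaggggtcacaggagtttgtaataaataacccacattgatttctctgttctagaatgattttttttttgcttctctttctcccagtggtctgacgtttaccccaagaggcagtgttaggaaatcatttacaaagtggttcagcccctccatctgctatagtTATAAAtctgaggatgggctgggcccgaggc
The STAT3 type motif reads the same on both strands and is held by 7.02% of the RefSeq windows. Among the 8 acute phase genes with a window it occurs in Apcs and Itih4. TATAAA was searched on the coding strand and is held by 7.59% of windows and, among the 8, by Crp and Cp. Neither the STAT3 type nor the C/EBP type motif occurs in the Crp window, which says only that these letters are not there.

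Saa4 encodes the constitutive serum amyloid A, a lipoprotein component that in the mouse is usually described as little changed by inflammation. Its signal was 8.32, 8.31 and 8.84 at E15.5, 9.50, 9.89 and 9.92 at P5, and 10.76, 10.54 and 10.51 at P10. It was the single gene of the 10 whose stages followed age without overlap, E15.5 lowest and P10 highest. Saa4 was 2.43-fold higher at P5 (1.28 ± 0.17 on the log2 scale, adjusted p 0.00049) and 4.32-fold higher at P10 (2.11 ± 0.17, adjusted p 1.9e-05) than at E15.5. It rose by a further 0.83 ± 0.17 from P5 to P10 (adjusted p 0.0298). That call was lost under quantile normalisation, with a replicate block, and without P5 arrays 1 or 2 or any single P10 array, where the adjusted p reached 0.0895. The limma test of the later change minus the earlier one did not pass (-0.45 ± 0.30, adjusted p 0.387), and the intervals differ in length.

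The inducible relatives of Saa4 differed from it in their values. Saa1 was at 4.50 to 5.41 on 8 arrays, below the olfactory receptor background, and at 7.05 on P10 array 1. Saa2 had means of 6.18 ± 0.086 (SD, n = 3) for E15.5, 6.69 ± 0.43 for P5 and 7.07 ± 0.65 at P10. Saa3 was at 9.17 on P5 array 2 and 8.53 on P10 array 1, and at 5.88 to 7.29 on the other 7 arrays. None of these 3 genes passed in any of the comparisons between stages. The nearest was Saa2 at P10 against E15.5, at 0.88 ± 0.32 (adjusted p 0.0598), which passed in 8 of 18 alternatives, quantile normalisation among them. Without P10 array 1 it was 0.51 (adjusted p 0.127). P5 array 2 and P10 array 1, the arrays high for Saa3, are also those high for Lcn2. Probes of such near-identical genes can share signal, which was not tested. Saa4 lies between Saa3 and Saa1 on chromosome 7.

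The window upstream of Saa4, chr7:46732604-46732853 on the minus strand of GRCm38.p6, is shown because this gene alone among the 10 rose in both intervals. Capitals mark 2 matches to the C/EBP type motif, TTGCNNAA at 245 to 238 bases before the RefSeq start and its other-strand form TTNNGCAA at 52 to 45.
Saa4 upstream: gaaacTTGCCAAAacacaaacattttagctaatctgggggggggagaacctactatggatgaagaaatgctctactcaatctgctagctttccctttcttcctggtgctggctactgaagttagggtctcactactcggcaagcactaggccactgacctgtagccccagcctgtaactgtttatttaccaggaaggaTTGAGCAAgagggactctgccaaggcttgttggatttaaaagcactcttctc
C/EBP type matches also occur in the windows of Cp, Hpx and Lcn2, so 4 of the 8 acute phase genes with a window hold one, and 9.56% of all windows do. Their stage patterns differ, Saa4 being highest at P10 and Cp, Hpx and Lcn2 having their highest mean at P5. The HNF4 type motif CAAAGTCCA, held by 0.384% of all windows, occurs in none of the 8.

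Orm1 encodes orosomucoid 1, also called alpha-1-acid glycoprotein, which carries basic drugs and lipids in plasma. Its signal was 6.02, 5.84 and 6.00 at E15.5, 7.16, 6.15 and 6.41 at P5, and 8.92, 6.30 and 6.30 at P10. The E15.5 arrays were at background and 2 arrays, P5 array 1 and P10 array 1, were high, the latter by 2.62 over the mean of the other P10 arrays, or 6.14-fold. P5 and P10 overlap. Orm1 passed in no comparison: it differed from E15.5 by 0.62 ± 0.65 at P5 (adjusted p 0.514) and by 1.22 ± 0.65 at P10 (adjusted p 0.186). Without P10 array 1 the P10 difference was 0.35 (adjusted p 0.389), and the difference from P5 to P10 turned from 0.60 to -0.27. Orm2 was at 4.93 to 5.11 on 8 arrays and at 7.30 on P10 array 1, and Orm3 was below background on all 9. Orm1 and Orm3 are neighbours on chromosome 4 and close copies, so part of the signal may be shared, which was not tested.

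Itih3 and Itih4 encode heavy chains of the inter-alpha-trypsin inhibitor family, of which the chain from Itih3 is linked to hyaluronan and stabilises the matrix. The genes lie side by side on chromosome 14, with Itih1 after Itih3. The signal of Itih3 was 11.09, 11.20 and 11.40 at E15.5, 11.99, 11.87 and 12.04 at P5, and 11.33, 11.31 and 11.51 at P10. The P5 arrays stood above all others, and the E15.5 and P10 arrays overlap. Itih3 was 1.66-fold higher at P5 than at E15.5 (0.74 ± 0.096 on the log2 scale, adjusted p 0.00042) and fell by 0.58 ± 0.096 from P5 to P10 (adjusted p 0.0125). The later call was lost without P10 array 2 (adjusted p 0.0529). At P10 Itih3 differed from E15.5 by 0.15 ± 0.096 (adjusted p 0.265). Its level was far above background at each stage, and its rise at P5 was the smallest of the 9 that passed.

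The signal of Itih4 was 9.56, 9.26 and 9.93 at E15.5, 11.40, 11.33 and 11.53 at P5, and 10.88, 10.26 and 10.77 at P10. The stages did not overlap, again in the order E15.5, P10, P5. Itih4 was 3.58-fold higher at P5 (1.84 ± 0.20 on the log2 scale, adjusted p 0.00014) and 2.08-fold higher at P10 (1.06 ± 0.20, adjusted p 0.0028) than at E15.5. The difference of -0.78 ± 0.20 from P5 to P10 did not pass (adjusted p 0.0636). Itih3 minus Itih4 within an array was 1.65 ± 0.25 (SD, n = 3) on the E15.5 arrays, 0.55 ± 0.043 at P5 and 0.75 ± 0.30 at P10 (exact permutation p 0.0143, adjusted over the 4 pairs 0.0190). Without E15.5 array 2 the p was 0.050 and the call was lost (adjusted p 0.0667). Of their relatives, Itih1 moved like Itih4: its mean went from 8.64 to 10.48 and then 9.36 over the stages, and it rose by 1.84 ± 0.12 (adjusted p 8.6e-06) and then fell by 1.12 ± 0.12 (adjusted p 0.0023). Itih2, at 12.33 ± 0.068 (SD, n = 3), 12.56 ± 0.10 and 12.36 ± 0.14, passed in neither interval.

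**Figure D2:**
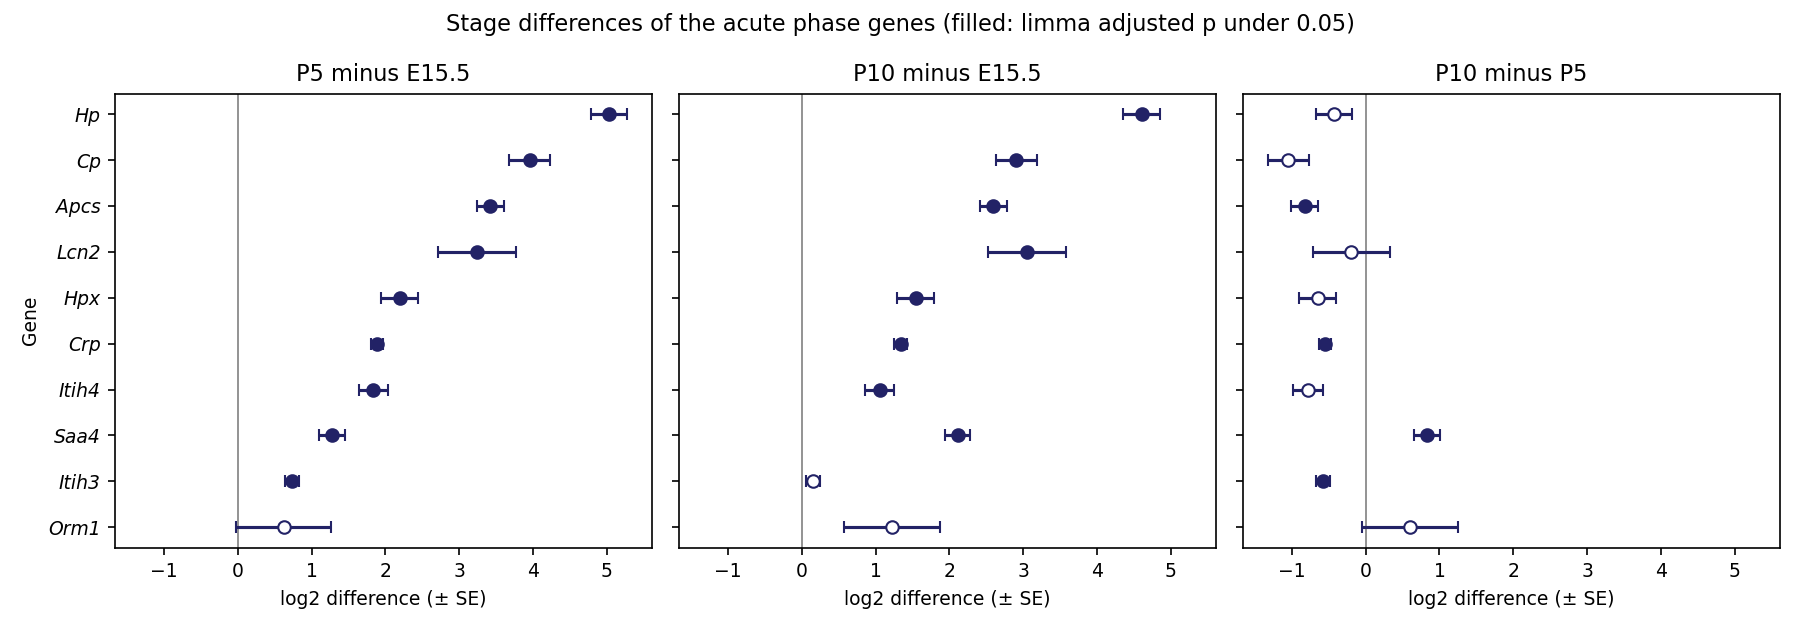
Log2 difference between stages for the 10 acute phase genes, with error bars of 1 SE from the model and filled points for a limma adjusted p under 0.05. From E15.5 to P5 the points run from 0.62 for Orm1 to 5.03 for Hp, and from P5 to P10 8 of 10 lie below 0, with Saa4 at 0.83 and Orm1 at 0.60 above it.

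Over the group, the median difference from E15.5 was 2.04 at P5 and 1.83 at P10 on the log2 scale, where the median of all genes was 0.029 and 0.024. The P5 arrays lay wholly above the E15.5 arrays for 10 of 10 genes (24.1% of all genes) and the P10 arrays for 9 (27.9% of all genes), Itih3 being the exception. From P5 to P10 the median was -0.56, against -0.0015 over all genes. The P10 arrays lay wholly below the P5 arrays for 6 genes (9.66% of all genes), Hp, Cp, Apcs, Crp, Itih3 and Itih4, and wholly above for Saa4 (10.6% of all genes). Apcs, Crp and Itih3 passed both as higher at P5 than at E15.5 and as lower at P10 than at P5, as did 0.572% of all genes. The comparisons with E15.5 share the E15.5 arrays, and those with P5 share the P5 arrays. A moderated F test over the stages called 9 of 10 genes (38.3% of all genes), with an adjusted p of 0.359 for Orm1.

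The later interval differed from the earlier one for 8 of the 10 genes, a call made for 16.6% of all genes and, with the later change the lower, for 8.7%. A large rise at P5 followed by any smaller change gives such a negative value, and the intervals differ in length. Of the 8, only Apcs, Crp and Itih3 were also called from P5 to P10. The change from P5 to P10 minus that from E15.5 to P5 was -5.46 ± 0.42 for Hp, -5.01 ± 0.48 for Cp, -4.25 ± 0.31 for Apcs, -3.43 ± 0.91 for Lcn2 and -2.84 ± 0.43 for Hpx. It was -2.62 ± 0.34 for Itih4, -2.43 ± 0.14 for Crp and -1.32 ± 0.17 for Itih3. The call for Lcn2 (adjusted p 0.0352) was lost in 9 of 17 alternatives, among them the fits without any single E15.5 array. Saa4 and Orm1 did not pass, at -0.45 ± 0.30 and -0.02 ± 1.12.

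P10 array 1 was the highest of the 3 P10 arrays for 9 of the 10 genes, all but Itih3, and for 37.0% of all genes. It exceeded the mean of the other P10 arrays by over 1 on the log2 scale for Orm1 and Lcn2 among the 10 and for 0.236% of all genes. Ranked over all genes by this gap, Orm1 was at rank 2 and Lcn2 at rank 6, with Eif2s3y at rank 1, Orm2 at 3, Uty at 4, Saa1 at 5 and Saa3 at 9. Of 43 other acute phase genes measured, it was the highest P10 array for 29 and over 1 above for 6, which were Orm2, Saa1, Saa3, C9, Saa2 and Mt2. Hamp, the iron hormone hepcidin, went the other way, at 5.73 on P10 array 1 against 7.33 and 8.49. Of 15 hepatocyte markers, it was the highest P10 array for 10 and over 1 above for none. The log2 of the summed linear signal of granulocyte markers was 9.23 to 9.51 over the 3 P10 arrays. Il6 was at 4.11 on P10 array 1 against 4.10 and 4.05.

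Eif2s3y and Uty are Y-linked genes. Eif2s3y was at 7.94 to 9.24 on E15.5 array 3, P5 arrays 2 and 3 and P10 array 1, and at 3.96 to 4.14 on the other 5 arrays. P10 array 1 was thus the single P10 array with a high signal of this gene, so the signal of Y-linked genes and whatever else is particular to this array cannot be told apart at P10. The part of either in the high Orm1 and Lcn2 was not tested.

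**Figure D3:**
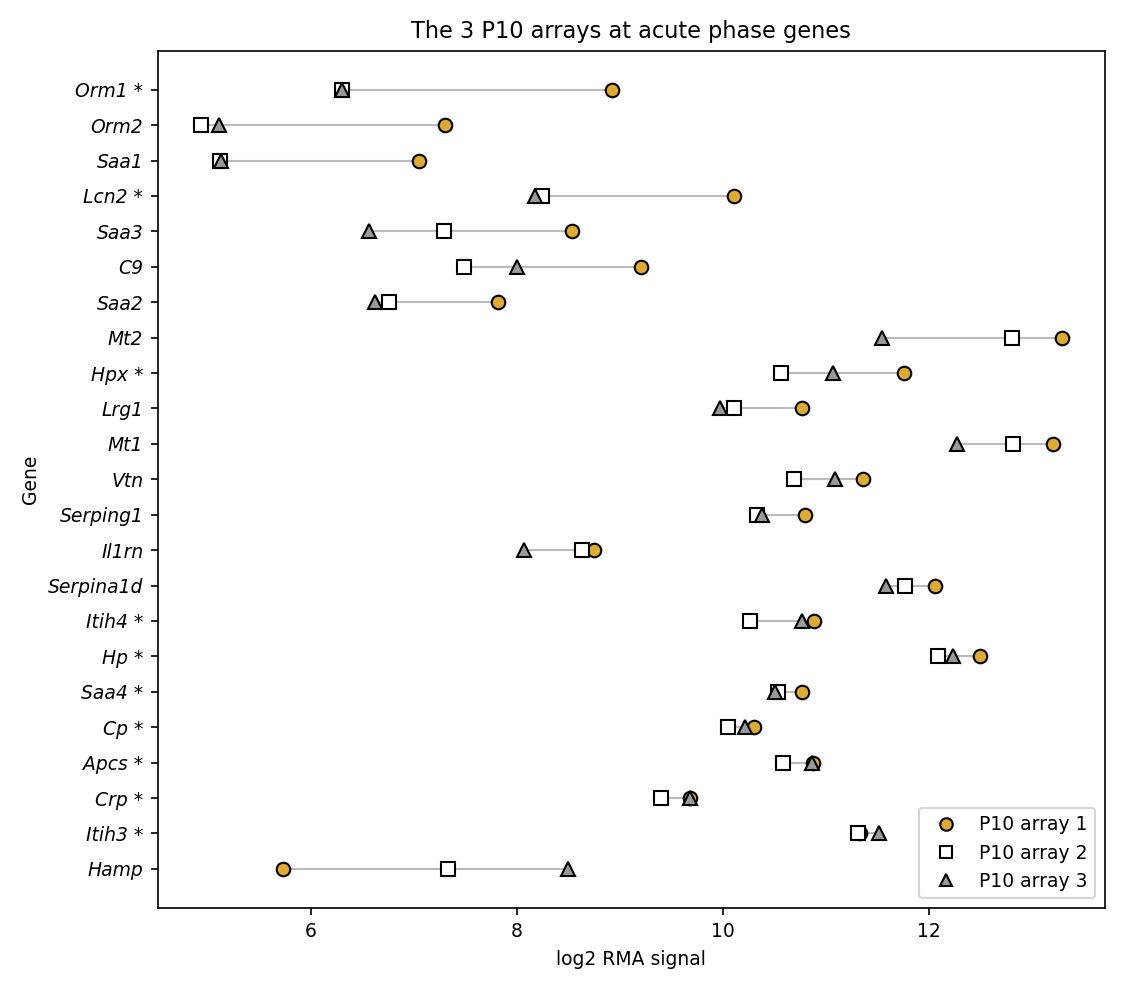
Log2 RMA signal of acute phase genes on P10 arrays 1, 2 and 3, ordered by how far array 1 stands from the mean of the others, with the 10 genes of the group marked by an asterisk. Array 1 is at 8.92 for Orm1 and 10.10 for Lcn2, far above the others, close to them for Crp and Itih3, and below them for Hamp at 5.73.

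Of 54 other acute phase genes listed, 43 were measured. At P5 23 of them rose over E15.5 and 2 fell, where 17.9% of all genes rose and 17.7% fell. At P10 13 rose and 6 fell, where 20.1% of all genes rose and 18.6% fell. From P5 to P10 none rose and 17 fell, where 2.76% of all genes rose and 2.89% fell. The median differences of the 43 were 0.53, 0.22 and -0.43. Under quantile normalisation 18 rose and 4 fell at P5, and 14 rose and 13 fell at P10, so their balance at P10 depends on the scaling, while the 10 genes against E15.5 kept their calls. Serpina3n, a protease inhibitor, rose by 5.54 ± 0.18 at P5, from E15.5 arrays of which 1 of 3 was above background. Lrg1, a secreted leucine-rich glycoprotein, was above background on no E15.5 array and was at least 20.9-fold higher at P5 (adjusted p 2.2e-06). Such a lower limit sets the P5 mean against the olfactory receptor percentile 95 of the E15.5 arrays. Mbl2, a mannose-binding lectin of complement, rose by 4.26 ± 0.20. Ptx3, a long pentraxin, and A2m, an inhibitor that traps proteases, were those that fell at P5. A2m fell by 1.90 ± 0.14 at P5 and was 3.03 ± 0.14 below E15.5 at P10, and Fn1, a matrix protein, was 1.26 ± 0.097 below at P10. Hamp, chosen after its values were seen, was at 6.51, 6.35 and 7.83 at E15.5, 11.72, 12.23 and 12.02 at P5, and 5.73, 7.33 and 8.49 at P10. It rose 34.1-fold (adjusted p 0.00039) and fell by 4.80 ± 0.66 to P10 (adjusted p 0.0057), where Hp was still at 12.09 to 12.50.

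The negative acute phase genes are those that fall in adult inflammation. Of 11 measured, 7 rose and 1 fell at P5 (5 and 1 under quantile normalisation or with Eif2s3y as a covariate). At P10 5 rose and 1 fell, with 2 up and 1 down from P5 to P10. Over all genes 17.9% rose and 17.7% fell at P5, 20.1% and 18.6% at P10, and 2.76% and 2.89% from P5 to P10. Ahsg, the fetuin A gene, rose by 1.02 ± 0.086 at P5, Serpina7, the thyroxine-binding globulin gene, by 3.63 ± 0.28 and Igf1, a growth factor gene, by 0.70 ± 0.13. Apom, an apolipoprotein gene, was 0.58 ± 0.16 below E15.5 at P10. Serpina6, the corticosteroid-binding globulin gene, was the 1 gene that fell at P5, by 4.69 ± 0.64, and it rose by 3.37 ± 0.64 to P10, opposite in order to Apcs and Crp. Igf1 was the other gene that rose from P5 to P10, by 0.54 ± 0.13, and Serpina7 the gene that fell.

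Of 42 measured cytokine, receptor and signalling genes of the acute phase, 13 rose and 9 fell at P5, and 14 rose and 12 fell at P10. From P5 to P10, 2 rose and 2 fell. Of all genes, 17.9% rose and 17.7% fell at P5, 20.1% and 18.6% at P10, and 2.76% and 2.89% from P5 to P10. Of the ligands, Il6, Il1b, Osm and Il11 were above background on no array, Tnf and Lif on 1 and Il1a on 2. Clcf1 and Ctf1, ligands of receptors that hold gp130, were above it on all 9 arrays. Ctf1 rose by 1.93 ± 0.21 at P5 (adjusted p 0.00016), and Clcf1 was 0.32 ± 0.077 below E15.5 at P10 (adjusted p 0.0104). Both were named after their values were seen. Il6st, which encodes gp130, was at 10.82, 10.66 and 10.92 at E15.5, 9.48, 9.42 and 9.51 at P5 and 8.09, 8.08 and 8.64 at P10, so that its arrays did not overlap and ran opposite to those of Saa4. Il6st fell by 1.33 ± 0.15 at P5 (adjusted p 0.00017) and was 2.53 ± 0.15 below E15.5 at P10. Lifr and Cntfr, receptors that pair with gp130, fell by 1.73 ± 0.17 and 1.76 ± 0.15 at P5. Il6ra, the interleukin 6 receptor itself, differed by 0.49 ± 0.16 in the same comparison (adjusted p 0.0403), a call lost in 7 of 18 alternatives. From P5 to P10, Stat5b and Nfkbia rose and Il6st and Il10rb fell. At P5 Stat3 rose by 0.99 ± 0.11 and its feedback target Socs3 fell by 0.47 ± 0.070. Socs2, Cish and Stat5b, genes of growth hormone signalling, rose by 2.87 ± 0.14, 1.03 ± 0.10 and 0.89 ± 0.13 at P5.

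Of 22 measured transcription factor genes tied to hepatic and acute phase transcription, 13 rose and 3 fell at P5, and 14 rose and 4 fell at P10. Over all genes 17.9% rose and 17.7% fell at P5, and 20.1% and 18.6% at P10. The median differences of the 22, 1.10 and 1.03, were below those of the 10 acute phase genes. Cebpa rose by 2.15 ± 0.066 at P5 (adjusted p 1.3e-07) and had means of 11.00 ± 0.074 (SD, n = 3) at P5 and 10.93 ± 0.059 at P10. Cebpb rose by 0.66 ± 0.17 (adjusted p 0.0151), while Cebpd, a cytokine-inducible factor, fell by 1.07 ± 0.27 (adjusted p 0.0130). Hnf4a rose by 2.45 ± 0.20, and Foxa2 and Klf15 by 1.42 ± 0.089 and 1.74 ± 0.091. Gata4 and Gata6, which are read in stellate and other mesenchymal cells, fell by 0.97 ± 0.13 and 1.51 ± 0.079 at P5, and at P10 Atf6 was the fourth that fell. Klf15 and Foxa2 rose and Gata6 fell from P5 to P10, where 2.76% of all genes rose and 2.89% fell.

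Of 25 measured genes for receptors, iron export and clearance of these proteins, 7 rose and 7 fell at P5, and 7 rose and 7 fell at P10. Over all genes 17.9% rose and 17.7% fell at P5, and 20.1% and 18.6% at P10. Asgr1, a subunit of the hepatocyte receptor for desialylated plasma proteins, rose by 4.22 ± 0.17 at P5, and Slc40a1, the iron exporter ferroportin, by 1.44 ± 0.13. Lrp1, the hemopexin receptor, fell by 0.98 ± 0.080, and Heph, a membrane ferroxidase related to ceruloplasmin, by 1.44 ± 0.14. Cd163, the receptor for haptoglobin bound to haemoglobin, was above background on no array.

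**Figure D4:**
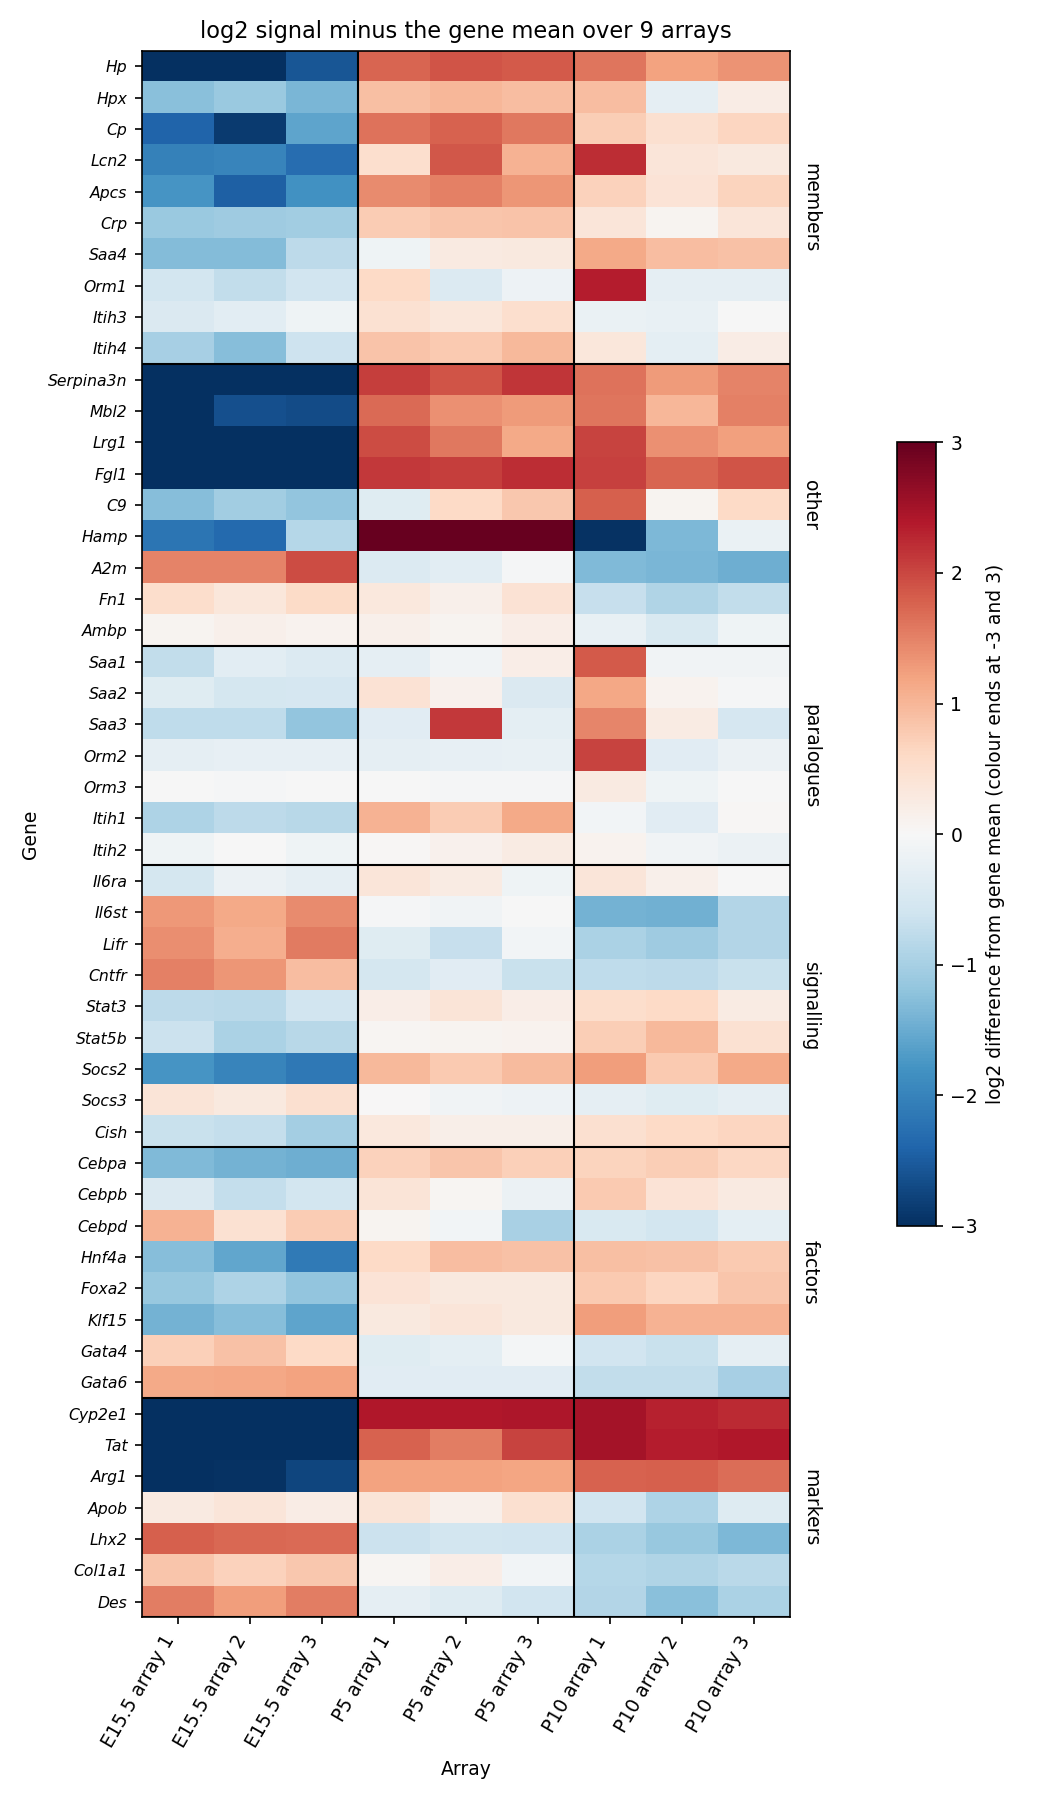
Log2 signal minus the mean over 9 arrays for the 10 acute phase genes, other acute phase genes, paralogues, signalling genes, transcription factors and cell type markers, with colour ending at -3 and 3. Hp, Cp and Serpina3n are low on all 3 E15.5 arrays and high on all later ones, while Orm1, Orm2 and Saa1 are high on P10 array 1, and Il6st and Lhx2 run the other way.

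Cell type markers moved in the same comparisons as the acute phase genes. In these, 17.9% of all genes rose and 17.7% fell at P5, and 20.1% and 18.6% at P10 against E15.5. Of 15 hepatocyte markers measured, 13 rose at P5 and none fell, with a median of 2.46, and at P10 11 rose and 1, Apob, fell. Summed signals here are the log2 of the sum of linear signals, so the brightest genes weigh most. That of the hepatocyte markers was 15.31 to 15.40 at E15.5, 16.12 to 16.19 at P5 and 16.17 to 16.35 at P10. Of these 15 markers, 10 were above background on all 9 arrays, Alb and Ttr among them. Cyp2e1, an adult cytochrome gene, and Tat, a tyrosine-degrading enzyme gene, were above background on no E15.5 array and were at least 110-fold (adjusted p 1.3e-09) and 53.7-fold (adjusted p 2.0e-08) higher at P5. All 13 stellate markers fell at P5 and at P10, with summed signals of 13.72 to 14.03, 12.23 to 12.49 and 11.88 to 11.99, yet all 13 stayed above background on all arrays. Lhx2, a stellate transcription factor, fell by 2.33 ± 0.097 and Des, the desmin gene, by 1.85 ± 0.13 at P5. Of 10 mesothelial markers 7 rose and 1 fell at P5, and 2, Krt8 and Krt18, rose and 6 fell at P10 against E15.5, with medians of 1.26 and -0.85. Their mean log2 signal was 8.02 to 8.10 at E15.5, 9.02 to 9.45 at P5 and 7.37 to 7.59 at P10. Their summed signal was 12.14 to 12.22, 13.62 to 13.77 and 13.16 to 13.25. Krt8 and Krt18 were the brightest of the 10 at each stage and weigh most in that sum. Their means were 10.57 and 10.29 at E15.5 and 12.05 and 12.11 at P10, so the sum does not stand for the other mesothelial markers. Of 10 sinusoidal endothelial markers 3, Pecam1, Stab1 and Fcgr2b, rose at P5 and none fell, with a median of 0.89 and summed signals of 10.21 to 10.44, 9.91 to 11.96 and 10.23 to 10.76. P5 array 1 stood apart in these, with Clec4g at 6.63 against 9.78 and 9.41 on the other P5 arrays. Of 5 cholangiocyte markers 3, Sox9, Krt19 and Epcam, rose at P5, and of 10 macrophage markers 2 rose and 1 fell. The part of any of these cell types in the rise of the 10 genes was not tested.

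From P5 to P10, where 5.65% of all genes were called, 4 of 15 hepatocyte markers, Tat, Tdo2, Apoc3 and Arg1, rose, 1, Apob, fell and 10 did not pass, with a median of 0.053. Of the 10 acute phase genes, 1 rose, 3 fell and 6 did not pass. Tat rose by 0.64 ± 0.12 in this interval and Tdo2 by 1.98 ± 0.23. Of 10 mesothelial markers 8 fell and none rose in the same interval, with a median of -2.07, and of 13 stellate markers 5 fell. Granulocytes store lipocalin 2. Of 12 granulocyte markers, 5, Ltf, Ngp, Mmp8, Csf3r and Ly6g, were above background on no array, 6 on some and 1, Prtn3, on all 9. Camp was above it on 7 arrays, Elane and S100a9 on 4, S100a8 and Mpo on 2 and Retnlg on 1. The summed signal was 9.03 to 10.08 at E15.5, 9.42 to 9.52 at P5 and 9.23 to 9.51 at P10. Prtn3 was the 1 granulocyte marker that rose, by 1.32 ± 0.20 at P5. The part of granulocytes in the signal of Lcn2 was not tested.

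The genes closest in pattern to each of the 10, by root mean square distance between centred log2 profiles over the 9 arrays among 18621 named genes, varied with the member. For Hp they were Rdh7 (distance 0.20) and Azgp1 (0.22). Cp was closest to Hsd17b13 (0.26) and to Apcs (0.31), and Hpx to Crp (0.27) and Slc13a3 (0.27). Apcs had Tkfc (0.26) and Hsd17b13 (0.27), and Crp had Elovl2 (0.13) and Ces2e (0.14) as nearest genes. Saa4 was nearest to Tprkb (0.14) and Papss2 (0.14), which like it had their highest mean at P10. Itih4 was nearest to Afm (0.13) and to Agt (0.20), itself an acute phase gene, and Itih3 to Fgl2 (0.11) and Ltbp2 (0.14). Fgl2 had means of 4.82, 5.34 and 4.90 at E15.5, P5 and P10, all below the olfactory receptor background. The distance compares centred profiles and not levels, so a gene without signal above background can be the nearest. Orm1 was nearest to Orm2 (0.38) and Saa1 (0.41), both high on P10 array 1 and above background on no other array. Lcn2 had the most distant neighbours of the 10, Rgs16 (0.49) and Apon (0.49).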

How the data were processed

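RNA of 9 samples of sorted liver stroma, 3 at each stage, was read on Affymetrix arrays. Per the labels' protocols, Trizol was used to extract RNA, from which biotinylated cRNA was made. The deposited values are log2 signals that the authors made by robust multi-array averaging (RMA), which corrects background, normalises between arrays and summarises probe sets. The submitters' processing notes name RMA, Affymetrix Expression Console and Transcriptome Analysis Console 2.0, and no genome build behind the annotation is named in them. RMA compresses differences of dim genes, and the number of arrays limits the precision.

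Of 35556 probe sets, 21789 had 1 gene symbol, 1621 had several and 12146 are unnamed here. For 21698 of those with 1 symbol, the Entrez identifier was found in the RefSeq annotation, whose symbol was used whether or not it differed. The probe set with the highest mean stood for each of 19938 genes, which decided 999 genes with several. Stage was fitted to all 9 arrays in limma 3.58.1 under R 4.3.3 with statmod 1.5.0 (6 residual and 2.22 prior degrees of freedom). Moderated 2-sided tests were adjusted over all genes by the method of Benjamini and Hochberg, and an adjusted p under 0.05 was called. Errors are SE of the model or, for means, SD over 3 arrays. 4 gene pairs were compared by exact permutation of within-array differences. The fit was tested on simulated data. Promoter windows are RefSeq's on GRCm38.p6 and matched 8 of the 10 genes. Figures come from matplotlib 3.10.9 (Python 3.11.15).

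The 10 genes, the other lists and the rule for naming were chosen with earlier results of these data known. The rule names, per list, up to 3 called genes in each direction with the smallest adjusted p at P10 against E15.5, members needed for a count of 5 or fewer, the paralogues and main regulators whatever their values, and 2 closest genes per member. Some genes under that rule are not reported here. Alternatives were quantile normalisation and centring on the median of all genes or of 57 ribosomal protein genes. In another, dim genes were left out, whose highest stage mean was not above percentile 30 of all probe set values (5.21). Others took the mean of probe sets, both stages of a comparison alone, or a trended and robust variance. The rest added Eif2s3y as a covariate or a replicate block, or left out each array in turn.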

Additional observations from a re-analysis of the deposited data

Results flagged for a closer look

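For 8 of the 10 acute phase genes the change from P5 to P10 differed from the change from E15.5 to P5. The limma test was of the difference itself over all 9 arrays. It called 16.6% of all genes, and 8.7% with the later change the lower. On the log2 scale the later change minus the earlier one was -5.46 for Hp (adjusted p 9.2e-05), -5.01 for Cp (adjusted p 0.00027) and -4.25 for Apcs (adjusted p 6.5e-05). The value was -3.43 for Lcn2 (adjusted p 0.0352), a call lost in 9 of 17 alternatives. It was -2.84 for Hpx (adjusted p 0.0030) and -2.62 for Itih4 (adjusted p 0.0014). It was -2.43 for Crp (adjusted p 2.3e-05) and -1.32 for Itih3 (adjusted p 0.0011). The intervals share the P5 arrays and differ in length, so that a large rise followed by any smaller change gives a negative value. No stage had enough arrays for a test of single arrays that stand apart.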

How the results depend on the processing

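All 9 calls of the 10 acute phase genes at P5 and all 8 at P10 against E15.5 were kept in direction and call in each of 18 alternatives. From P5 to P10, 4 of the 10 were called, and 1 to 6 when 1 array was left out (1, Crp, without P10 array 2, 2 without P5 array 1, P5 array 2 or P10 array 3). Over all genes this comparison gave 1126 calls, 709 with both stages alone and 586 to 1385 with 1 array left out (586 without P10 array 2, 730 without P10 array 3 and 747 without P5 array 2). With both stages alone, fewer samples being fitted, other acute phase genes gave 9 calls in place of 17 and cytokine, receptor and signalling genes 2 in place of 4. The latter also gave 2 with Eif2s3y as a covariate and 2 to 6 with 1 array left out (2 without P10 array 2). Negative acute phase genes gave 3 calls, and 1 to 3 with 1 array left out (1 without P10 array 2 or 3). The exact p for Itih3 minus Itih4 was 0.0143, and 0.0036 to 0.050 with 1 array left out (0.050, or 0.0667 adjusted, without E15.5 array 2). Itih2 at P10 against E15.5 turned from 0.03 to -0.27 under quantile normalisation (adjusted p 0.0475). The cause of these moves was otherwise not tested.

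Centring on all genes raised the share of called genes that were higher from 51.8% to 65.6% at P10 against E15.5 and from 48.8% to 63.5% from P5 to P10, and the median of all genes from 0.024 to 0.12 in the first. From P5 to P10, quantile normalisation left 0 of the 10 genes rising and 3 falling, against 1 and 3.

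Residuals of arrays with the same replicate number correlated at -0.079 to 0.069 across genes, and 0 of 9 pairs were over 0.1. Arrays with different numbers were not compared, so this does not settle whether the numbers pair the arrays. With a replicate block 6886 genes were called at P5 and 7440 at P10 against E15.5, and 893 from P5 to P10. In that last comparison Saa4 lost its call and Itih4 gained one, so 0 of the 10 rose and 4 fell. Signal near background limits what can be said of Orm1, Saa1, Orm2 and Orm3, and at E15.5 of Lcn2, Serpina3n, Lrg1, Cyp2e1, Tat and Tdo2. The same holds for Ptx3 at P5.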

Other observations

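E15.5 array 3 was the highest of the 3 E15.5 arrays for 6 of the 10 acute phase genes and for 26.2% of all genes. Its gap to the mean of the other E15.5 arrays was 0.96 for Hp, 1.07 for Cp, 0.53 for Saa4 and 0.52 for Itih4 on the log2 scale. Fgl1, a hepatocyte-secreted protein gene, was at 7.24 on it against 6.32 and 5.66, and Hamp at 7.83 against 6.51 and 6.35. E15.5 array 2 had the highest S100a8 and S100a9, granulocyte genes, at 7.46 and 8.52 against at most 5.29 and 5.82 on the other E15.5 arrays, and Lcn2 was at 5.91 on it. Mt1 and Mt2, metal-binding metallothionein genes, were at 12.27 and 11.54 on P10 array 3, where the other arrays were at 12.81 or above for Mt1 and 12.80 or above for Mt2.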
